A study of Homo sapiens with 2 samples.

Results

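The zinc finger genes of chromosome 19 were followed in K562 cells depleted of SMC1A. They were taken as the rows of the deposited table whose symbol is ZNF, a number and at most 1 further letter, and which GENCODE release 29 annotates as protein-coding on chromosome 19 (GRCh38). This gave 247 genes among 62702 rows, 83 on the short arm (19p) and 164 on the long arm (19q), against 262 genes of the same naming on other chromosomes. K562 was established from a patient with chronic myeloid leukemia and expresses erythroid genes. All cells carried dCas9-KRAB, a nuclease-dead Cas9 joined to a KRAB repressor domain, and the titles of both libraries call them WT and E50, neither of which the labels explain. In the SMC1A guide library the cells had received a lentiviral guide RNA to repress SMC1A, which encodes part of the ring-shaped cohesin complex. In the control guide library they had received a control guide. Both cultures were kept in puromycin at 1 µg/ml between day 2 and day 6 and sorted for strong blue fluorescence from the guide vector. Poly(A) RNA was then sequenced with paired reads of 100 bases, starting from 1 µg of RNA. Each guide had 1 library, so no difference has a replicate check and no test across samples exists. The intervals given cover counting error only. In such bulk RNA, fewer expressing cells and less RNA per cell cannot be told apart.

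Most of these genes encode KRAB zinc finger proteins. A tandem array of zinc fingers binds a DNA sequence, often within a retrotransposon, and the KRAB box recruits TRIM28, through which SETDB1 and heterochromatin proteins place the repressive mark H3K9me3. The family grew by tandem duplication, so its members lie in dense clusters on chromosome 19, and in several cell types, K562 among them, the finger-coding exons of these genes are themselves covered by that repressive chromatin. Cohesin holds chromatin loops and sister chromatids together. The dCas9 fusion, present in both cultures, also works through a KRAB domain.

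The promoters of 3 of the 4 members that differed by at least 2-fold, and of ZNF91, a repressor of SVA retrotransposons, are shown as examples of the start regions of these genes (RefSeq, GRCh38.p14, 250 bases before and 50 after the start, written 5′ to 3′ on the strand of the gene). ZNF304 lies on the plus strand at chr19:57351021-57351320. ZNF772 lies on the minus strand at chr19:57477517-57477816, ZNF569 on the minus strand at chr19:37467395-37467694 and ZNF91 on the minus strand at chr19:23395422-23395721. Capitals mark the sequence AACTACNTTNCCCA in ZNF304, ZNF772 and, on the other strand, ZNF569. In ZNF91 they mark, on the other strand, the core of the CTCF motif, GGNGGCAG.
ZNF304: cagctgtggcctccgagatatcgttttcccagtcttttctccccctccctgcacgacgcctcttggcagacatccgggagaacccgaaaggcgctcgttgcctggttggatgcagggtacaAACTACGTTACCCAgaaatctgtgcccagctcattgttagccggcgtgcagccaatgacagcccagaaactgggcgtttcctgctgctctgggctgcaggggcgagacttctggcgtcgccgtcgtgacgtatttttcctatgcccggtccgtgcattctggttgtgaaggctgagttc
ZNF772: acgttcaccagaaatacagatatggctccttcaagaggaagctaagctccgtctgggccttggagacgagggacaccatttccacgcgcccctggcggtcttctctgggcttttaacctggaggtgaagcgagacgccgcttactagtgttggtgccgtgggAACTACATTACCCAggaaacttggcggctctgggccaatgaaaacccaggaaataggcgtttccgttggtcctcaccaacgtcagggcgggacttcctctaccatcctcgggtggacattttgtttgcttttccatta
ZNF569: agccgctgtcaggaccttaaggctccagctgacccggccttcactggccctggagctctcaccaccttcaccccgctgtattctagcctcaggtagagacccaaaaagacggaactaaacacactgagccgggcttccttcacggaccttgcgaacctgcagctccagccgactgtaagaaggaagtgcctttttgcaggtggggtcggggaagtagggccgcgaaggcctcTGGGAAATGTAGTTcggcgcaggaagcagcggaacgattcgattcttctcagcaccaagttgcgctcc
ZNF91: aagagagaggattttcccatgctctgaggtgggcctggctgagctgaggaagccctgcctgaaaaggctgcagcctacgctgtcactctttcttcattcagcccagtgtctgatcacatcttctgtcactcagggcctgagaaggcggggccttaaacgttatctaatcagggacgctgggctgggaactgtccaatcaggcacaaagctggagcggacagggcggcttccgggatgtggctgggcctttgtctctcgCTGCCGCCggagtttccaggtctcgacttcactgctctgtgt

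The promoters of ZNF304, ZNF772 and ZNF569 were seen to share a sequence, which was then defined as the 14-base window with the most identical bases among them. It had 12 identical bases, and its letters resemble the known binding sequence of the transcription factor ZNF143. These 3 genes all lie on 19q, and their promoters hold AACTACNTTNCCCA by construction. On either strand, it stood in a promoter of 20 of 143 long-arm members, in 0 of 73 short-arm members and in 0.307% of the 27326 genes of the promoter table. Among ZNF genes of other chromosomes it was found in 5 of 214 (2.34%), and among other genes of chromosome 19 in 6 of 1294 (0.464%). A second window, shifted by 1 base (ACTACNTTNCCCAG), had as many identical bases and was found in 30 of 143 long-arm members (21.0%), in 0 short-arm members and in 0.425% of all genes. With 1 more letter free in either window, the long-arm count was 24 or 42 (16.8% or 29.4%), the short-arm count was 1 (1.37%), and the share of all genes was 0.659% or 0.915%. Without the 3 genes that defined it, the long-arm count over the 4 forms was 17 to 39 of 140 (12.1% to 27.9%), and the share of all genes 0.296% to 0.904%. Its spread over 3 regions of 19q depended on the form. The members between ZNF565 and ZNF573 held 2 to 13 of the occurrences. Those between ZNF575 and ZNF296 held 3 to 13, and those between ZNF628 and ZNF446 10 to 15. In every form, the members between ZNF175 and ZNF331, 32 of them in the promoter table, held at most 1, so the sequence was not a trait of the whole arm. Promoters of 216 of the 247 members were in the table, 36 of them with more than 1 start. Genes that arose by duplication share promoter sequence, so these are not independent occurrences. GGNGGCAG was found in 11 of 143 long-arm and 12 of 73 short-arm members, 10.6% of all members, against 19.3% of the genes in the table.

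**Figure D1:**
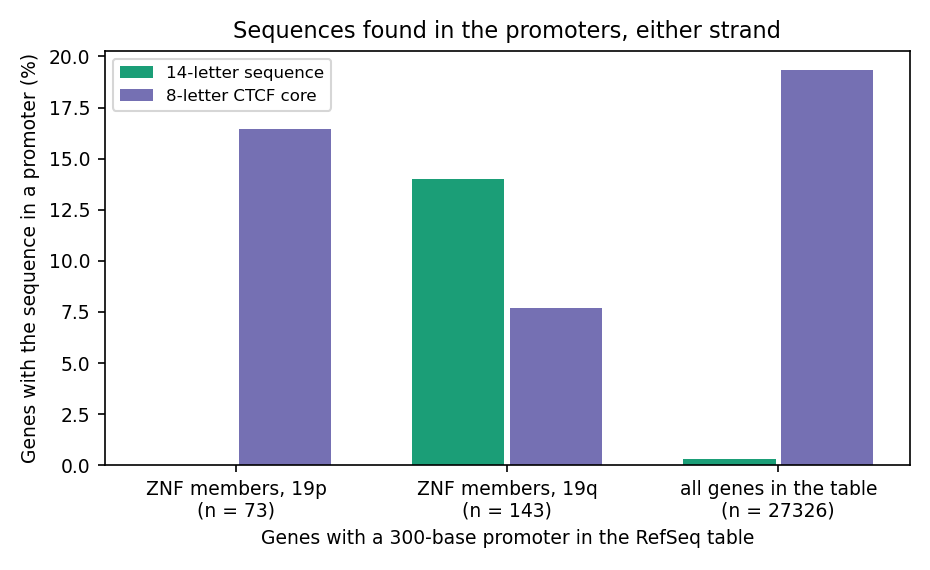
Percent of genes with a promoter that holds, on either strand, the shared 14-letter sequence or the 8-letter core of the CTCF motif, for ZNF members of 19p and 19q and for all genes of the promoter table. The 14-letter sequence was found in 20 of 143 genes on 19q, against 0 of 73 on 19p and 0.307% of all genes. The 20 include the 3 genes that defined the sequence. Without these 3, the 19q count was 17 of 140 (12.1%), against 0.296% of all genes.

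SMC1A itself was at 16.3 CPM (counts relative to the TMM-scaled library size) with the SMC1A guide and 460.4 CPM with the control guide, so 3.55% of the control level was left (3.14 to 3.99). The libraries held 16864207 counts with the SMC1A guide and 18349209 with the control guide. Erythroid genes lay on both sides of their control level: TAL1 was at 226.2 CPM with the SMC1A guide and 188.6 CPM with the control guide, GATA1 at 111.6 CPM with the SMC1A guide and 164.1 CPM with the control guide, and HBG2 at 1159 CPM with the SMC1A guide and 3713 CPM with the control guide. Of 8 genes that mark other cell types, 5 were above and 3 below their control level. The fibroblast genes COL1A1 and COL1A2 went opposite ways, with 233 and 42 counts with the SMC1A guide, against 64 and 70 with the control guide. The monocyte genes CD14 and LYZ had 1 and 428 counts with the SMC1A guide, against 3 and 319 with the control guide. For the T cell genes CD3D and CD3E the counts were 324 and 21 with the SMC1A guide, against 255 and 10 with the control guide. The epithelial genes KRT8 and EPCAM had 11443 and 2019 counts with the SMC1A guide, against 9304 and 2978 with the control guide. Their part in the results was not tested. Ratios are log2 ratios of CPM, SMC1A guide over control guide, after TMM scaling of the library sizes and with a prior count of 1.

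Of the 247 members, 147 had at least 100 counts summed over both libraries and were set against the 11321 genes of the table that did. A further 34 had 20 to 99 counts, 45 had 1 to 19 and 21 had none. The members took 0.281% of all counts with the SMC1A guide and 0.272% with the control guide. Members with at least 100 counts therefore leave out the most weakly expressed genes, 26 of 83 on 19p and 74 of 164 on 19q.

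Few chromosome 19 ZNF genes differed by 2-fold. Of the 147, 2 were at least 2-fold higher with the SMC1A guide (1.36%), against 5.11% of all genes tested, and 2 were at least 2-fold lower, against 2.32% of all genes. At 1.5-fold, 14 were higher (9.52%), against 12.2% of all genes, and 6 were lower (4.08%), against 9.06%. The whole counting interval lay past 2-fold upward for 0 of the 147 members, against 3.03% of all genes, and downward for 0, against 1.26%. The median log2 ratio of the members was -0.02, with quartiles of -0.25 and 0.28, against a median of -0.05 for all genes tested. Over 191 ZNF genes of other chromosomes the median was -0.04, with 3 genes past 2-fold upward and 0 downward. Scaling by library totals moved the ratios by 0.13 and gave the members a median of 0.11. Under the 5 scalings tried, 68 of the 147 members stayed above 0, 56 stayed below 0 and 23 changed sign.

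The arms lay on opposite sides of the median of all genes. The 57 short-arm members had a median log2 ratio of 0.17, and 39 of them (68.4%) were above 0, against 45.7% of all genes tested. The 90 long-arm members had a median of -0.13, and 29 of them (32.2%) were above 0. By library totals the medians were 0.30 on 19p and -0.0029 on 19q. The whole counting interval lay above 0 for 21 short-arm and 14 long-arm members, against 29.4% of all genes. It lay below 0 for 7 short-arm and 34 long-arm members, against 38.7%. As shares, 36.8% of short-arm and 15.6% of long-arm members had an interval above 0, and 12.3% and 37.8% had an interval below it. Among ZNF genes of other chromosomes, 17.3% had an interval above 0 and 36.1% an interval below it, near the long-arm shares. For other protein-coding genes the medians were -0.06 over 324 genes of 19p and -0.04 over 295 genes of 19q. With 1 library per guide the difference between the arms could not be tested.

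**Figure D2:**
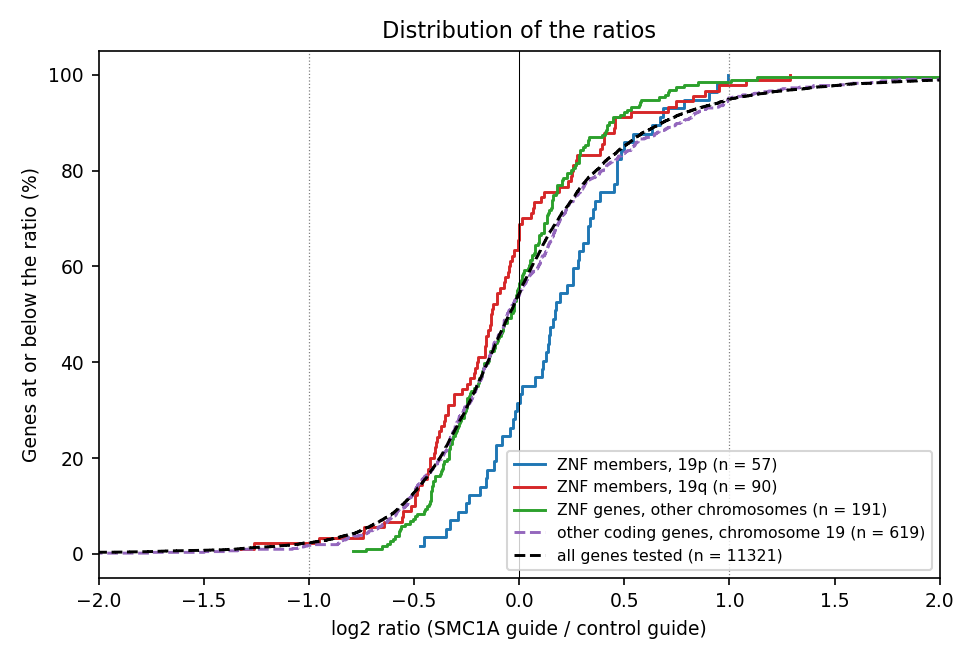
Cumulative percent of genes at or below each log2 ratio (SMC1A guide over control guide) for members of 19p and 19q, ZNF genes of other chromosomes, other protein-coding genes of chromosome 19 and all genes tested. The 19p curve lies to the right (median 0.17), the 19q curve to the left (median -0.13), and dotted lines mark 2-fold.

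Expression level moved with these ratios. In 5 equal bins of mean expression over all genes tested, the median of protein-coding genes was 0.22 in the lowest and -0.19 in the highest bin. Of the members, 70 fell in the lowest bin (under 10.7 CPM), 49 in the next, 19 in bin 3, 7 in bin 4 and 2 in bin 5. In bin 1 the 31 short-arm members had a median of 0.28 and the 39 long-arm members -0.01, against 0.22 for coding genes. In bin 2 the medians were -0.0002 for 14 short-arm and -0.16 for 35 long-arm members, against 0.02 for coding genes. In bin 3 they were 0.23 for 7 short-arm and -0.13 for 12 long-arm members, against -0.04 for coding genes. In each of these bins the short-arm median was above the long-arm one, and the long-arm median was below that of coding genes. ZNF genes of other chromosomes had medians of 0.26 over 44 genes in bin 1, -0.02 over 57 in bin 2 and -0.17 over 39 in bin 3. In bins 2 and 3 they too were below coding genes, so a low median there was not particular to 19q. When the bin medians of the 10153 other coding genes were weighted by where the members fell, they gave 0.11 for the bins of the short-arm members and 0.10 for those of the long-arm members. By the same weighting over the bins of all members, 10.2% of other coding genes were past 2-fold upward and 3.42% downward. The members' own share was 1.36% each way. With the running median over expression subtracted, the medians were 0.09 on 19p and -0.19 on 19q. Without the cluster of ZNF101 to ZNF254, left out after its values were seen, the short-arm median was 0.13, or -0.02 with the expression trend removed. Among members with at least 500 counts the medians were -0.0002 over 22 short-arm genes and -0.16 over 45 long-arm genes.

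**Figure D3:**
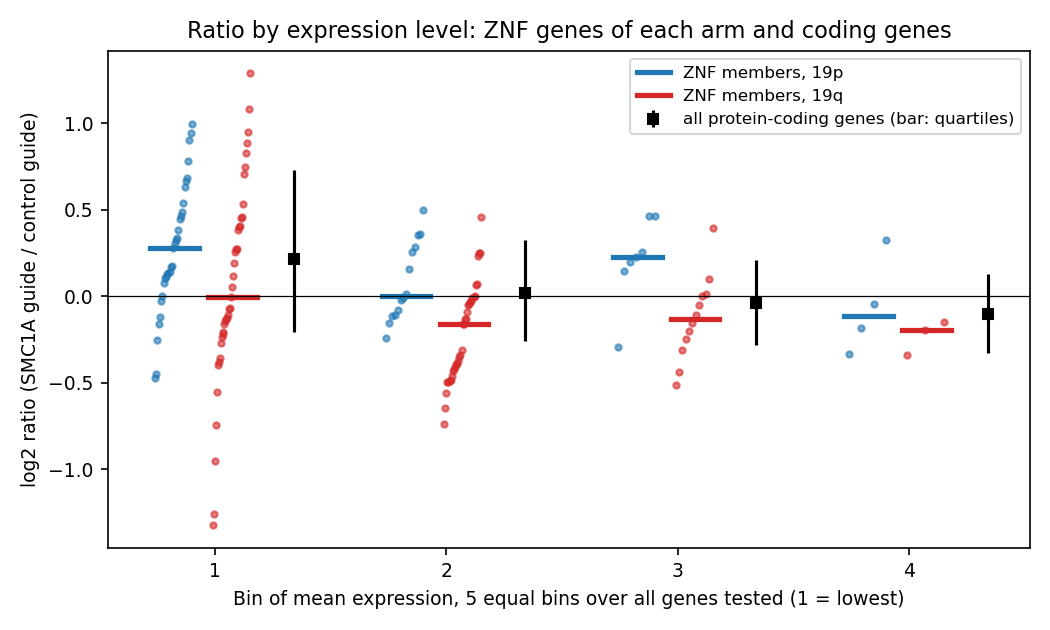
Log2 ratio of each member by arm (points, with the median as a bar) and of all protein-coding genes (square at the median, bar over the quartiles), in bins 1 to 4 of mean expression. The 2 members of bin 5, ZNF121 and ZNF146, are not drawn. In bins 1 to 3 the 19p bar lies above the 19q bar.

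Members at most 1 Mb apart were joined, which gave 16 groups along the chromosome, and 7 of them had at least 5 members with at least 100 counts. These clusters are named by their first and last gene. On 19p, the cluster of ZNF101 to ZNF254 (chr19:19668796-24129961) holds 37 members, ZNF91 and ZNF93 among them. Of its 26 members with at least 100 counts, 20 had a ratio above 0, 10 had an interval above 0 and 0 had an interval below it. Their median was 0.27, or 0.10 with the expression trend removed. The cluster of ZNF653 to ZNF490 (chr19:11483427-12640098) had a median of 0.26 over 13 genes, 10 of them above 0, and 0.27 with the trend removed. The 4 other coding genes with at least 100 counts within it had a median of -0.23. The cluster of ZNF557 to ZNF846 (chr19:7069444-9793180) had a median of 0.07 over 13 genes, with 4 intervals above and 5 below 0. Its median was -0.02 with the trend removed and -0.24 among members with at least 500 counts. The 24 other coding genes within it had a median of 0.13, and there were 0 such genes between ZNF101 and ZNF254. Outside these clusters, the short-arm group of ZNF554 to ZNF77 had a median of -0.19 over 4 genes, 1 of them above 0. ZNF333, alone in its group, was at -0.16.

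On 19q, the cluster of ZNF175 to ZNF331 (chr19:51571298-53580269) had the lowest median of the 7 clusters before the expression trend was removed and at this count limit. Of its 24 members, 5 had a ratio above 0, 2 had an interval above it and 11 had an interval below it. The median was -0.18, with and without the expression trend, and the 2 other coding genes within it had a median of 0.22. The largest cluster, ZNF628 to ZNF446 (chr19:55476332-58481230), had a median of -0.09 over 34 genes. Its median was -0.21 with the expression trend removed, then the lowest of the 7, and -0.32 among members with at least 500 counts, but 0.04 by library totals. The 11 other coding genes within it had a median of -0.10. Its ratios ran from -0.74 to 1.29, and it held 7 intervals above and 12 below 0. The cluster of ZNF565 to ZNF573 (chr19:36182060-37817300) had a median of -0.05 over 12 genes, or 0.08 by library totals and -0.05 with the trend removed, with ratios from -1.26 to 0.89. That of ZNF575 to ZNF296 (chr19:43525497-45076588) had a median of 0.06 over 9 genes, 0.09 with the trend removed, against 0.20 for the 14 other coding genes within it. Along the chromosome, 83 of the 133 pairs of neighbouring members within a group had ratios on the same side of 0 (Spearman correlation 0.26 across pairs that share genes). Both genes of a pair lie on the same arm, and 68.4% of short-arm and 32.2% of long-arm members were above 0. Many pairs would thus share a side without any likeness between neighbours, and the share for other pairs of the same arm was not worked out.

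**Figure D4:**
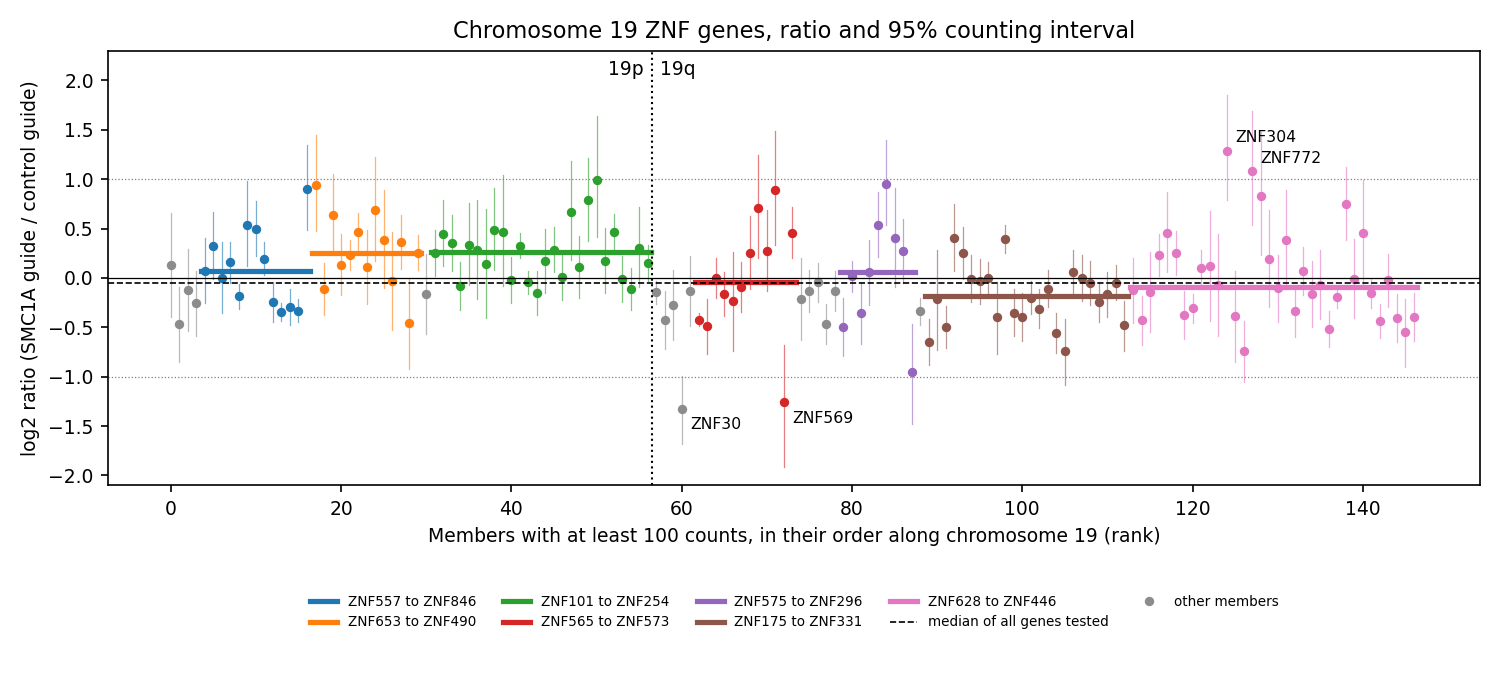
Log2 ratio (points) and 95% counting interval (vertical lines) of the 147 members with at least 100 counts, in their order along chromosome 19. Thick bars are cluster medians, the dotted vertical line parts 19p from 19q, and thin dotted lines mark 2-fold. The green cluster of ZNF101 to ZNF254 has a median of 0.27 and the brown cluster of ZNF175 to ZNF331 one of -0.18.

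ZNF304 was the highest member, with 107 counts (6.07 CPM) in the SMC1A guide library and 43 (2.45 CPM) in the control guide library. Its ratio was 2.48-fold (log2 1.29, interval 0.78 to 1.85). It encodes a KRAB protein with 16 fingers and lies at chr19:57351307-57359898. The other member past 2-fold upward, ZNF772 (chr19:57466663-57477570), had 84 counts (4.76 CPM) with the SMC1A guide and 39 (2.22 CPM) with the control guide (log2 ratio 1.08, interval 0.54 to 1.69). Higher and lower genes stood side by side here. ZNF749 (chr19:57435329-57445485), between them, had 144 counts (8.16 CPM) with the SMC1A guide and 240 (13.7 CPM) with the control guide, the lowest ratio of the whole cluster (log2 -0.74, interval -1.05 to -0.44). ZNF419 follows ZNF772 and is named because of its value. It was counted 65 times with the SMC1A guide and 36 times with the control guide (log2 ratio 0.83). ZNF749 and ZNF772 both share exon sequence on their strand with another annotated gene, so the division of their reads is uncertain.

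ZNF30 was the lowest member. It had 101 counts (5.73 CPM) with the SMC1A guide and 253 (14.4 CPM) with the control guide, 2.52-fold lower (log2 ratio -1.32, interval -1.68 to -0.99). It lies at chr19:34926903-34945170 in a group of 5 members, 4 with at least 100 counts, all of them below 0. By library totals its neighbour ZNF792 was at -0.0056, and the others stayed further below 0. ZNF569 (chr19:37411155-37469275) had 33 counts (1.87 CPM) with the SMC1A guide and 80 (4.56 CPM) with the control guide (log2 ratio -1.26, interval -1.92 to -0.68). ZNF296 followed with 52 counts (2.95 CPM) with the SMC1A guide and 101 (5.76 CPM) with the control guide (log2 ratio -0.95). Next was ZNF816, with 122 counts with the SMC1A guide and 204 with the control guide (-0.74). ZNF296 overlaps exons of 1 other annotated gene and ZNF816 of 3.

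On the short arm 0 of 57 members passed 2-fold. ZNF730 came closest, with 71 counts (4.03 CPM) in the SMC1A guide library and 35 (1.99 CPM) in the control guide library. Its log2 ratio of 0.99 was 1.01 with a prior count of 0.25, 0.92 with a prior count of 5 and 0.63 with the expression trend removed, and ran from 0.99 to 1.12 over the scalings. ZNF653 was at 6.18 CPM with the SMC1A guide and 3.19 CPM with the control guide (0.94), ZNF846 at 7.71 CPM with the SMC1A guide and 4.10 CPM with the control guide (0.90) and ZNF492 at 7.60 CPM with the SMC1A guide and 4.39 CPM with the control guide (0.78). On the long arm ZNF226 was at 7.77 CPM with the SMC1A guide and 3.99 CPM with the control guide (0.95), ZNF875 at 4.37 CPM with the SMC1A guide and 2.34 CPM with the control guide (0.89) and ZNF432, the highest of its cluster, at 9.75 CPM with the SMC1A guide and 7.35 CPM with the control guide (0.40). The lowest short-arm members were ZNF555, at 5.78 CPM with the SMC1A guide and 8.04 CPM with the control guide (-0.47), and ZNF490, at 4.03 CPM with the SMC1A guide and 5.53 CPM with the control guide (-0.45). Of the genes in this paragraph, ZNF730, ZNF432 and ZNF490 each overlap exons of 1 other annotated gene, and ZNF653 of 2.

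Members with a known target or partner showed small differences. ZNF91 had 600 counts (34.02 CPM) with the SMC1A guide and 432 (24.6 CPM) with the control guide, a log2 ratio of 0.47 (interval 0.29 to 0.65), and encodes 31 fingers by the pattern used here. ZNF93, a repressor of LINE-1 elements, had 284 counts with the SMC1A guide and 299 with the control guide (log2 ratio -0.08, interval -0.32 to 0.16), a difference not detectable at this depth, and its ratio was 0.05 by library totals. ZNF274, which brings SETDB1 to the finger-coding exons of other ZNF genes, had 760 counts with the SMC1A guide and 843 with the control guide (log2 ratio -0.16, interval -0.30 to -0.01). ZNF473, which takes part in the 3′ end processing of histone mRNA, had 760 counts with the SMC1A guide and 957 with the control guide (-0.34, interval -0.48 to -0.20).

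Of the 5 members with the highest levels per length, in CPM per kilobase of annotated exon, 4 had an interval below 0. Of all genes, 64.7% in bin 5, where ZNF146 and ZNF121 fell, and 47.6% in bin 4, where ZNF317 fell, had an interval below 0. In bin 3, where ZNF787 and ZNF428 fell, it was 37.1%. With the expression trend removed, ZNF146 was at -0.23, ZNF121 at -0.20, ZNF787 at -0.21, ZNF317 at -0.11 and ZNF428 at 0.09. ZNF146, which consists almost wholly of fingers, was at 42.1 with the SMC1A guide and 56.5 with the control guide, and its 3078 counts with the SMC1A guide and 4107 with the control guide gave a log2 ratio of -0.42 (interval -0.49 to -0.36). ZNF121 was at 13.97 with the SMC1A guide and 17.76 with the control guide (log2 ratio -0.35), ZNF787 at 10.3 with the SMC1A guide and 12.7 with the control guide (-0.31), ZNF317 at 10.8 with the SMC1A guide and 12.3 with the control guide (-0.19) and ZNF428 at 20.3 with the SMC1A guide and 20.1 with the control guide (0.01). ZNF562, among the lowest short-arm members, had 1124 counts with the SMC1A guide and 1407 with the control guide (-0.33), and ZNF708, the lowest of its cluster, 325 with the SMC1A guide and 360 with the control guide (-0.15). Across the 147 members the ratio fell with expression level (Spearman correlation -0.34 over genes, which are not independent replicates and whose ratio and level come from the same counts).

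**Figure D5:**
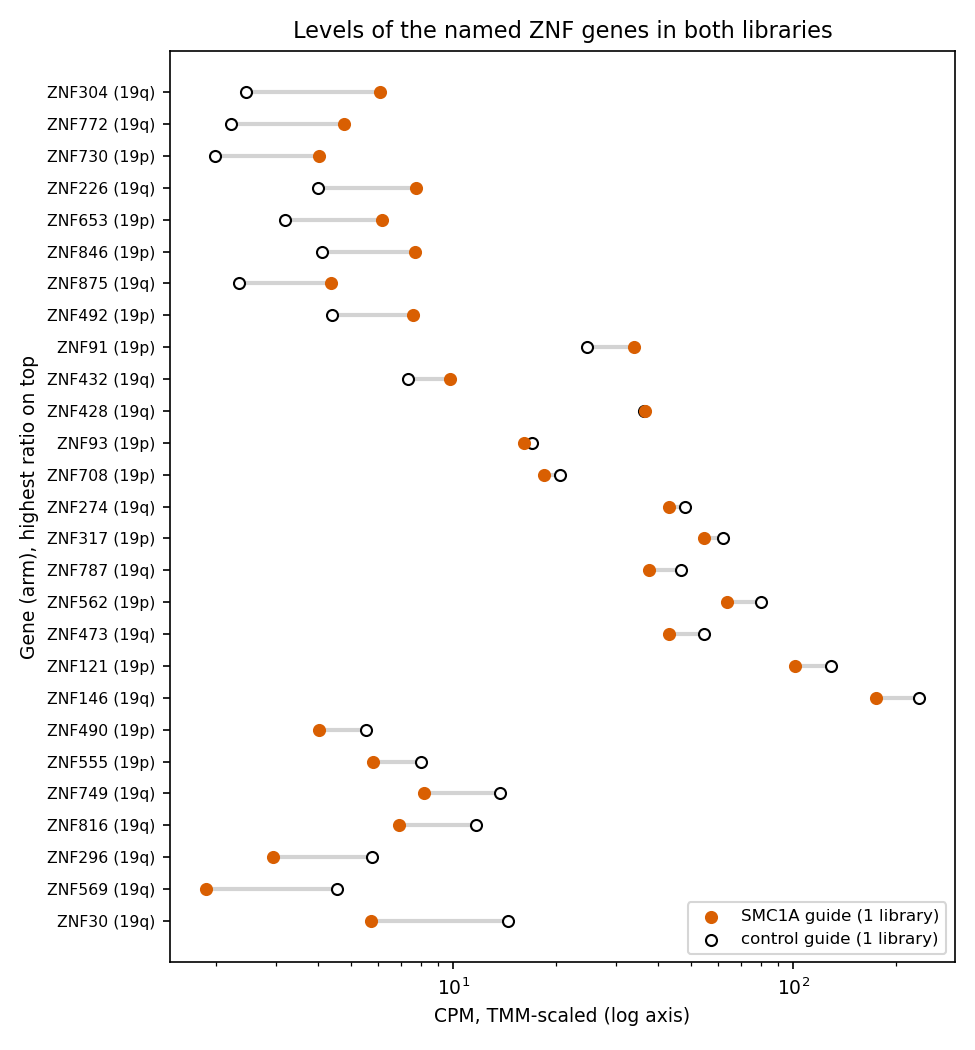
Level of each named member in CPM (log axis) with the SMC1A guide (filled) and the control guide (open), ordered by log2 ratio with the highest on top. Levels are to be compared between libraries within a gene, since they are not divided by length. The ends are ZNF304, at 6.07 CPM with the SMC1A guide and 2.45 CPM with the control guide, and ZNF30, at 5.73 CPM with the SMC1A guide and 14.4 CPM with the control guide.

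In the translated coding sequences, a KRAB box was found by at least 1 of 2 patterns in 208 of 247 members, against 3.71% of all protein-coding genes, and the number of fingers ran from 0 to 36 with a median of 12. The median log2 ratio was -0.02 over the 119 members with a box and at least 100 counts and -0.05 over the 28 without. With the first pattern alone it was -0.01 over 95 members and -0.05 over 52. Within 19p the medians were 0.17 over 51 members with a box and 0.22 over 6 without, and within 19q -0.13 over 68 with and -0.13 over 22 without. Members with 15 or more fingers had a median of 0.06 over 49 genes, those with 10 to 14 -0.01 over 61, and those with fewer -0.15 over 37. The Spearman correlation with the number of fingers was 0.14 over 147 genes. Long-arm members with the 14-letter sequence in a promoter had a median of -0.19 over 13 genes, and those without it -0.11 over 67. With 1 more letter free, the order was turned (-0.05 over 16 and -0.13 over 64). The sets with the sequence include ZNF304, ZNF772 and ZNF569, which were picked for ratios past 2-fold and hold it by construction. These comparisons are thus not independent of the ratios, and medians without those genes were not worked out. Ratios were not compared for the window shifted by 1 base.

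Of the 23 listed co-repressor and silencing genes, all with at least 100 counts, 0 passed 2-fold in either direction, 0 were at least 1.5-fold higher and 1 was at least 1.5-fold lower. Most were highly expressed, 13 in bin 5 and 8 in bin 4. In bin 5, 1.24% of all genes were past 2-fold upward and 1.63% downward, and in bin 4 1.86% and 1.41%. A count of 0 past 2-fold among 23 is thus near that of all genes. At least 1.5-fold higher were 4.46% of all genes in bin 5 and 5.92% in bin 4. At least 1.5-fold lower were 9.89% and 7.99%. TRIM28, the direct partner of the KRAB box, was at 370.1 CPM with the SMC1A guide and 526.6 CPM with the control guide (log2 ratio -0.51, interval -0.55 to -0.46), and at -0.23 with the expression trend removed. SETDB1, the H3K9 methyltransferase that TRIM28 recruits, was at 62.8 CPM with the SMC1A guide and 67.4 CPM with the control guide (-0.10), or 0.03 by library totals. Among heterochromatin proteins, CBX3 was at -0.39 (-0.11 with the trend removed), CBX1 at 0.03 and CBX5 at 0.14. The genes of the HUSH silencing complex and its partner were at 0.37 for TASOR, 0.20 for MPHOSPH8, -0.19 for PPHLN1 and -0.29 for MORC2. The histone chaperone gene DAXX was lowest, at 94.1 CPM with the SMC1A guide and 143.9 CPM with the control guide (-0.61), and its partner ATRX was at 0.36. The remodeller gene CHD3 was highest (0.46), CHD4 was at -0.30, HDAC1 at 0.23 and HDAC2 at -0.20. The histone methyltransferase genes were at -0.36 for SUV39H1, -0.14 for SUV39H2, -0.16 for EHMT1 and -0.17 for EHMT2. ATF7IP, a partner of SETDB1, was at 0.10, SMARCAD1 at -0.37, the DNA methyltransferase gene DNMT1 at -0.15 and UHRF1 at -0.22. The median was -0.16, against -0.05 for all genes, and 0.00 with the expression trend removed, which turned the signs for CHD4, DNMT1, HDAC2 and SETDB1.

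Of the 34 members with 20 to 99 counts, 6 were at least 2-fold higher (17.6%), against 26.6% of the 2936 genes of that range, and 0 were lower, against 8.69%. Their median was 0.43, against 0.31 for all genes of the range. ZNF709, named because of its value, was counted 37 times with the SMC1A guide and 8 times with the control guide (log2 ratio 2.07, interval 1.08 to 3.52). Chromosome 19 genes with other finger names were few. ZFP30 was highest at 12.9 CPM with the SMC1A guide and 6.67 CPM with the control guide (0.95), and ZSCAN22 lowest at -0.27, among 6 genes with at least 100 counts. Of these, ZFP36 has another type of finger.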

How the data were processed

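RNA was measured in 2 K562 libraries, 1 per guide. The authors deposited estimated counts per gene in a single table, without scaling the libraries to each other, and the deposited expected counts are whole numbers. STAR 2.7.10a, Salmon 1.10.1, DESeq2 1.42.1 and the build hg38 (GRCh38) stand in the submitters' processing notes, which do not say what each was used for. How reads of closely related ZNF genes are divided can change their counts, and exons of 82 of the 247 members overlap another annotated gene on their strand.

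Symbols came from a gene-name table (62700 of 62702 rows matched), and positions and types from GENCODE 29, which holds 97.9% of the genes tested. Libraries were scaled with TMM (edgeR 4.0.16 in R 4.3.3). Ratios have exact (Clopper-Pearson) 95% counting intervals, which leave out variation between cultures and treat each read as a separate molecule. The arms were parted at position 26000000. The expression trend is a running median over 401 genes. Fingers and KRAB boxes were counted by patterns in the translated longest coding sequences of GENCODE 29, where the plan named a protein table. The second KRAB pattern was added after the first was seen to miss boxes. Python 3.11.15 was used with pandas 2.3.3, numpy 2.4.6 and scipy 1.17.1.

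Members named are those past 2-fold, the 4 highest and 4 lowest of each arm, the highest and lowest of each cluster, the 5 with the most control counts per kilobase, and ZNF91, ZNF93, ZNF274 and ZNF473. The members and lists were chosen with earlier results of these data known. The ratios, their intervals and the trend removal were tried on simulated counts that held counting error only. Variation between cultures was not simulated, and the finger, KRAB and promoter steps were not part of it.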

Additional observations from a re-analysis of the deposited data

How the results depend on the processing

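No paired analysis was possible because each guide had 1 library. By library totals, 7 members (4.76%) were at least 2-fold higher, against 6.77% of all genes, the median of all members was 0.11, that of 19q -0.0029 and that of the ZNF101 to ZNF254 cluster 0.39. With at least 20 counts, 8 members (4.42%) were higher, and of all genes 1361 (9.55%) were higher and 518 lower. With at least 500 counts, 0 members were higher and 0 lower, against 199 (2.36%) and 140 (1.66%) of all genes. The medians there were -0.11 for all members, and -0.0002 for 19p and for the ZNF101 to ZNF254 cluster. They were -0.24 for ZNF557 to ZNF846 and -0.32 for ZNF628 to ZNF446, and the cause was not tested. With at least 1 count, 23 members (10.2%) were higher and 9 (3.98%) lower, against 3800 (16.9%) and 2714 (12.1%) of all genes, and the 19q median was -0.017. With the expression trend removed, 1 member was higher and 3 were lower, against 4.69% and 2.73% of all genes, and the ZNF101 to ZNF254 median was 0.10. When the whole interval had to pass 2-fold, 0 members were higher and 0 lower, against 343 (3.03%) and 143 (1.26%) of all genes. Without the members that overlap another gene, 1 of 96 was higher, against 5.11% of all genes.

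Over the 5 scalings, 68 members with at least 100 counts were always above 0, 56 always below, and 23 changed sign. Under each scaling the 19p median was above 0 (0.17 to 0.30) and the 19q median below 0 (-0.13 to -0.0029). A change of scaling shifts all log2 ratios by nearly the same amount, so it cannot check the gap between the arms. The scalings other than library totals differed from it by 0.112 to 0.130, and so were close to each other. DESeq2 size factors, upper quartile scaling and a prior count of 0.25 each gave 3 higher members (2.04%), against 5.29%, 5.38% and 5.22% of all genes. Leaving out the ZNF101 to ZNF254 cluster, chosen after seeing the data, gave 0.13 for 19p, or -0.02 with the expression trend also removed, and leaving out ZNF628 to ZNF446 gave -0.14 for 19q. For 71 of the 147 members (48.3%) the counting interval held 0, against 31.8% of all genes tested. In the lowest expression bin this was so for 58.6% of the 70 members and 46.2% of all genes, and the part of depth in it was not tested. The ZNF575 to ZNF296 cluster gave no value with at least 500 counts.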
